A study of Mus musculus with 10 samples.

Results

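The transcription factor NRF2, its inhibitor KEAP1 and 8 of their antioxidant target genes were followed in liver RNA of both genotypes, wild-type and Ndrg3 LKO. The 10 genes (*Nfe2l2*, *Keap1*, *Nqo1*, *Hmox1*, *Gclc*, *Gclm*, *Gsr*, *Txnrd1*, *Srxn1* and *G6pdx*) were taken by symbol from the 24052 gene symbols of the count tables. The rule uses no measured value, but the genes were proposed with earlier results of these data known. All 10 passed the filter on low counts. RNA was sequenced from 10 livers, 5 wild-type and 5 Ndrg3 LKO, of mice fed ad libitum, labelled C57BL/6; the floxed line had been backcrossed to C57BL/6N. The paper's own figure of these RNA data gives 5 wild-type and 4 Ndrg3 LKO livers, and does not say which liver was left out. In Ndrg3 LKO mice, exon 4 of *Ndrg3* was floxed and removed by Cre recombinase under the albumin promoter, so only albumin-expressing cells, mainly hepatocytes, should lose it, and the other cells of the liver keep the gene. Wild-type littermates served as controls. In the final cross described for the line 1 parent was homozygous for the floxed allele, so littermates of that cross carry at least 1 floxed allele, and whether the controls carried the Alb-Cre transgene is not given in the sources used here. The labels give no age. Values are CPM (counts scaled to library size) after TMM scaling, which adjusts each library for its composition (TMM-normalized CPM), and a gene was called changed at an adjusted p under 0.05 in edgeR's quasi-likelihood test over all genes.

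NRF2, encoded by *Nfe2l2*, is held at low levels by KEAP1, which hands it to a ubiquitin ligase for degradation. Oxidants and electrophiles modify cysteines of KEAP1, NRF2 then accumulates, enters the nucleus with a small MAF protein and binds antioxidant response elements near genes for glutathione synthesis, thioredoxin reduction, quinone reduction and NADPH supply. In liver this system is known for its part in the defence against reactive drug metabolites and oxidative stress. Much of its control acts on the protein, which was not measured here, so the *Nfe2l2* mRNA is not a measure of NRF2 activity.

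In Ndrg3 LKO livers, 5 of the 10 genes rose (*Nfe2l2*, *Nqo1*, *Hmox1*, *Srxn1* and *G6pdx*), 3 fell (*Gclc*, *Gclm* and *Gsr*), and *Keap1* and *Txnrd1* were not called. With library size alone as the scale, 6 were called higher and none of the 10 was called lower. Among all 11208 genes tested, 48.6% were called, 25.6% higher and 23.0% lower, and with library size alone 61.0% were called, 52.1% higher and 8.97% lower. The median log2 fold change of the 10 genes was 0.45, in the gap between *Hmox1* at 0.99 and *Keap1* at -0.089, with no member near it. That of all genes tested was 0.031. The groups did not overlap for 5 of the 10 genes, 4 of them higher in Ndrg3 LKO livers (*Nfe2l2*, *Nqo1*, *Hmox1* and *Srxn1*) and 1 lower (*Gclm*). Over all genes tested, 31.5% did not overlap, 15.6% with Ndrg3 LKO livers higher and 15.9% with them lower. Without Ndrg3 LKO replicate 5, which stood apart from the other 4, the genes again split into 5 higher and 3 lower, where 55.6% of all genes were called, 28.4% higher and 27.2% lower.

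**Figure D1:**
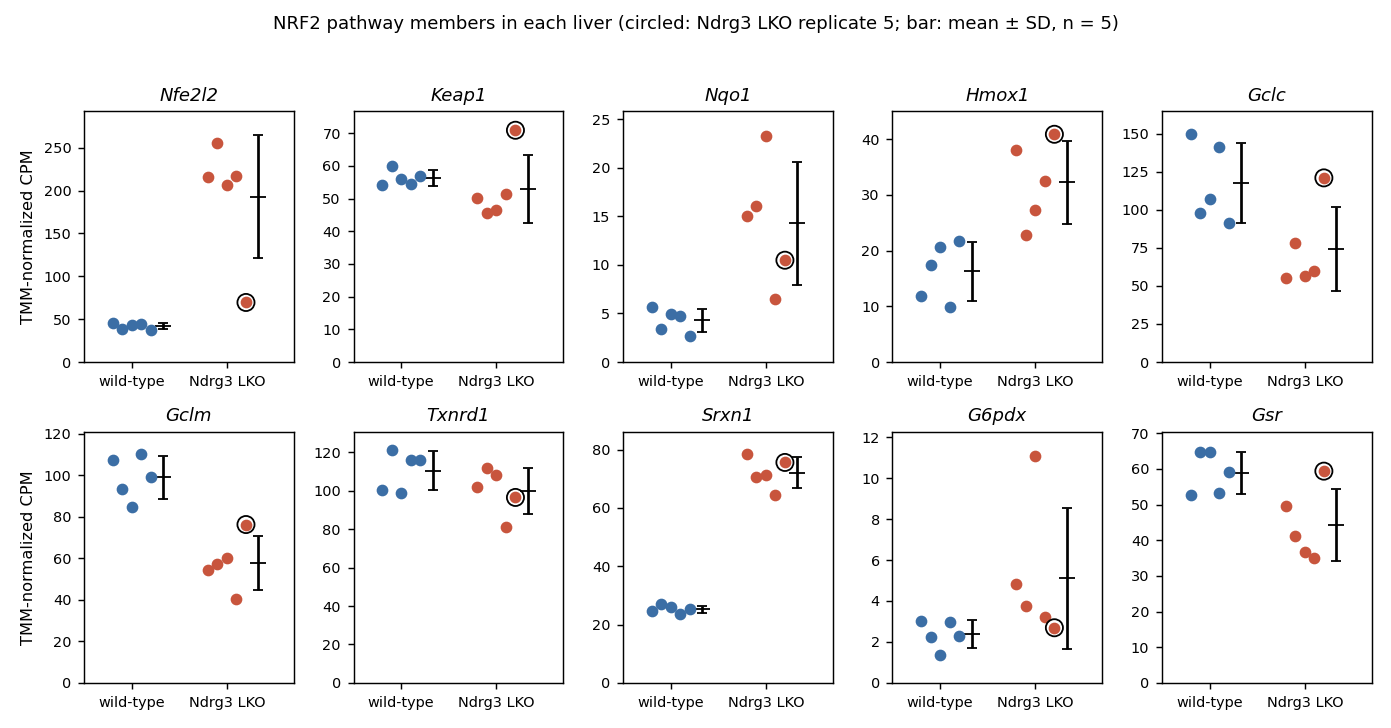
TMM-normalized CPM of each of the 10 genes (vertical axes, from 0) in 5 wild-type (blue) and 5 Ndrg3 LKO livers (red), 1 point per liver, with the group mean and SD as bars and Ndrg3 LKO replicate 5 circled. *Srxn1* ranged from 23.6 to 27.0 in the wild-type and from 64.6 to 78.4 in the Ndrg3 LKO group, while *Nfe2l2* was at 69.4 in the circled liver and between 207 and 256 in the other 4.

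The libraries held 20872262 to 24747870 counts in the wild-type group and 23474693 to 30450057 in the Ndrg3 LKO group, so that 3 counts, the floor used here, stood for 0.0728 to 0.179 CPM. All 10 genes lay above this floor in every liver, and counting error only is covered by it. *Ndrg3* itself ranged from 15.9 to 21.9 CPM in the wild-type and from 7.08 to 9.18 in the Ndrg3 LKO group (log2 fold change -1.20, edgeR adjusted p = 3.87e-05), over the whole gene and not exon 4 alone. Albumin mRNA, the defining hepatocyte transcript, was at 20962 to 26379 CPM in Ndrg3 LKO replicates 1 to 4 and at 108020 in replicate 5, within the wild-type range of 80612 to 115946. Results that rest on replicate 5 are therefore given with and without it where leaving it out ended a call or moved the value by over 1.5 times. The TMM factors were 0.805 to 0.916 in wild-type livers, 0.904 in Ndrg3 LKO replicate 5 and 1.20 to 1.36 in the other 4. The choice of scale therefore moved all fold changes: the median of all genes was 0.031 with TMM, and 0.56 with library size alone. In whole liver, fewer cells of a type and less RNA per cell cannot be told apart.

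The RefSeq promoter windows of mouse build GRCm38.p6, each 250 bases before to 50 bases after a transcription start, held 7 of the 10 genes in 9 windows, and *Hmox1*, *Gclc* and *Gsr* had none. They were searched on both strands for TGACNNNGC, the core of the antioxidant response element, and for TGAGNNNGC, a looser form that can overlap the AP-1 motif TGAGTCA. The core was present in 5 of the 9 windows, from the genes *Nfe2l2*, *Gclm*, *Txnrd1*, *Srxn1* and *G6pdx*, and in 12.4% of all 32851 windows. TGAGNNNGC was found in the *Srxn1* window alone, and in 17.6% of all windows. The windows of *Keap1* and *Nqo1* held neither, but an element outside these short windows would not have been seen. *Nfe2l2* and *Srxn1* were higher in every Ndrg3 LKO liver than in any wild-type liver. *Gclm* was called lower with TMM and was not called with library size alone (log2 fold change -0.28). The 250 bases upstream of the start are printed for these 3 genes, which all hold a match. Each is written 5′ to 3′ on the gene's own strand, and capitals mark matches to either pattern on either strand. The stretches are chr2:75704664-75704913 on the minus strand for *Nfe2l2*, chr2:152105274-152105523 on the plus strand for *Srxn1*, and chr3:122245307-122245556 on the plus strand for *Gclm*.
Nfe2l2: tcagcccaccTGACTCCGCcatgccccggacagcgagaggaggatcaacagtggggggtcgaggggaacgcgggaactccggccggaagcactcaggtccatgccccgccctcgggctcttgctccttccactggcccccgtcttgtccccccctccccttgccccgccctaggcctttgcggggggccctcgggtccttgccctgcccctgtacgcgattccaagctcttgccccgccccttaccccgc
Srxn1: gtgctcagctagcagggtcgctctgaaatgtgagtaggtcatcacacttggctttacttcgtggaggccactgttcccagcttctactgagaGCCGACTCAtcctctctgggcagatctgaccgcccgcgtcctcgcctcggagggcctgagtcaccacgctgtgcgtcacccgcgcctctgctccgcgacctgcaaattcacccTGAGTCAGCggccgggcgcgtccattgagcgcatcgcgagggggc
Gclm: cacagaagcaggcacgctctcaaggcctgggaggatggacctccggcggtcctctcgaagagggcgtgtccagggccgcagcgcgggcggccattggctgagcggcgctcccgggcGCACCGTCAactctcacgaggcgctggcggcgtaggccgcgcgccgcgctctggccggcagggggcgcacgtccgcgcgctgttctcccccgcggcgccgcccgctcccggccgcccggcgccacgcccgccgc
In *Nfe2l2* the core match TGACTCCGC began 240 bases before the start. In *Gclm* the match GCACCGTCA, which reads TGACGGTGC on the other strand, began 134 bases before it. In *Srxn1*, TGAGTCAGC began 45 bases before the start and contains the AP-1 motif, GCCGACTCA began 158 bases before it, and a core match, GCTAGGTCA, lay past the start and outside the printed stretch. *Txnrd1* had 3 windows, and its match, GCTTTGTCA, began 92 bases upstream in 1 of them, with none in the others. The match in *G6pdx*, GCTCAGTCA, began 57 bases upstream. Matches were thus held by genes that rose, by 1 that fell with TMM and by 1 that was not called, and a match of letters does not show that a factor binds there.

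*Nfe2l2* lies on chromosome 2 of mm9 (NCBIM37) from 75513570 to 75542698 on the minus strand. Its mRNA was at 45.4, 38.2, 43.6, 44.1 and 37.4 CPM in wild-type replicates 1 to 5, and at 215, 256, 207, 217 and 69.4 CPM in Ndrg3 LKO replicates 1 to 5. Every Ndrg3 LKO liver lay above every wild-type liver, and replicate 5 lay much nearer to the wild-type livers than to the other 4. The means were 41.7 ± 3.66 (SD, n = 5) and 193 ± 71.5 CPM (SD, n = 5), a log2 fold change of 2.21 (standard error 0.28, 95% interval 1.60 to 2.82, quasi-likelihood test in edgeR, adjusted p = 1.11e-04). Of all genes tested, 1.82% had a larger log2 fold change. Ndrg3 LKO replicates 1 to 4 averaged 224 ± 21.7 CPM (SD, n = 4), 5.36 times the wild-type mean, and replicate 5 stood at 1.66 times that mean. Without replicate 5 it came to 2.41 (edgeR adjusted p = 1.02e-07).

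*Keap1*, on chromosome 9 from 21034174 to 21043776, encodes the protein that marks NRF2 for degradation. It was at 54.1, 60.1, 55.9, 54.5 and 57.0 CPM in wild-type livers and at 50.3, 45.6, 46.6, 51.4 and 70.9 CPM in Ndrg3 LKO livers. Among the Ndrg3 LKO livers, replicate 5 exceeded all wild-type livers and the other 4 were under all of them. Its log2 fold change came to -0.089 (standard error 0.13, 95% interval -0.38 to 0.20, edgeR adjusted p = 0.596), and -0.23 without replicate 5 (edgeR adjusted p = 0.0683). With library size alone it was 0.41 (edgeR adjusted p = 0.0072), and 0.15 below the median of all genes on that scale. On the opposite strand *Keap1* overlaps Gm16754, and the strand setting of the counting is not given in the sources used here.

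The balance of the 2 mRNAs was taken within each liver, as the ratio of their counts, which does not depend on the scale. There were 1.19, 1.57, 1.28, 1.24 and 1.52 *Keap1* counts per *Nfe2l2* count in wild-type livers. In Ndrg3 LKO livers there were 0.234, 0.178, 0.225, 0.237 and 1.02. All 5 Ndrg3 LKO livers lay below all wild-type livers, replicate 5 only slightly. The log2 ratio was 0.44 ± 0.18 (SD, n = 5) in wild-type and -1.76 ± 1.01 (SD, n = 5) in Ndrg3 LKO livers, a difference of -2.19 (2-sided exact permutation test, p = 0.00794, the smallest that 5 livers against 5 allow; adjusted p = 0.0238 over the 6 ratios tested).

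*Nqo1*, on chromosome 8 from 109912125 to 109927106, encodes a quinone reductase often used as a readout of NRF2. It was at 5.62, 3.42, 4.96, 4.78 and 2.68 CPM in wild-type livers, from 45 to 104 counts each, and at 15.1, 16.0, 23.3, 6.48 and 10.5 CPM in Ndrg3 LKO livers, from 222 to 904 counts each. The groups did not overlap, but Ndrg3 LKO replicate 4 lay close to the highest wild-type liver. The mean rose from 4.30 ± 1.20 to 14.3 ± 6.33 CPM (SD, n = 5 each), a log2 fold change of 1.73 (standard error 0.32, 95% interval 1.03 to 2.43, edgeR adjusted p = 0.00115). A larger log2 fold change was found for 3.34% of genes. Over the 10 livers, the 3 genes whose log2 CPM followed *Nqo1* most closely were Snx6 (Pearson r = 0.97), 4930483K19Rik (r = 0.96) and Atp1b1 (r = 0.96). These coefficients include the difference between the groups and are a description without a test. 4930483K19Rik was low, at a mean of 0.42 CPM in wild-type and 1.60 CPM in Ndrg3 LKO livers, where the filter asked for 1 CPM.

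*Hmox1*, on chromosome 8 from 77617490 to 77624495, encodes heme oxygenase 1, which breaks heme down to biliverdin, iron and carbon monoxide. It was at 11.8, 17.5, 20.6, 9.85 and 21.7 CPM in wild-type livers and at 38.1, 22.9, 27.2, 32.4 and 40.9 CPM in Ndrg3 LKO livers. The groups did not overlap, with Ndrg3 LKO replicate 2 just above the highest wild-type liver, and replicate 5 was the highest of all. The mean rose from 16.3 ± 5.27 to 32.3 ± 7.44 CPM (SD, n = 5 each), a log2 fold change of 0.99 (standard error 0.24, 95% interval 0.47 to 1.50, edgeR adjusted p = 0.00511). Macrophages also express *Hmox1*, and 14 of 14 Kupffer cell and macrophage markers were higher in Ndrg3 LKO livers. Their summed CPM was 160, 411, 195, 208 and 263 in wild-type and 1042, 338, 1003, 552 and 471 in Ndrg3 LKO livers. In Ndrg3 LKO replicate 2 this sum lay inside the wild-type range, and *Hmox1* there was 22.9 CPM against a wild-type maximum of 21.7. Replicate 5, the highest in *Hmox1* at 40.9 CPM, had a sum of 471, and replicate 3, with a sum of 1003, had *Hmox1* at 27.2 CPM. The part of macrophages in the *Hmox1* values was not tested. The *Hmox1* to *Nqo1* log2 ratio was 1.90 ± 0.85 in wild-type and 1.27 ± 0.90 in Ndrg3 LKO livers (SD, n = 5 each), and its difference of -0.63 did not pass the exact permutation test (p = 0.294, adjusted p = 0.352).

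Glutathione is made in 2 steps, the first by glutamate-cysteine ligase, whose catalytic and modifier subunits are encoded by *Gclc* and *Gclm*, the second by glutathione synthetase (*Gss*). *Gsr* encodes the reductase that returns oxidized glutathione to its reduced form. *Gclm*, on chromosome 3 from 121948475 to 121972902, was at 108, 93.6, 84.7, 110 and 99.2 CPM in wild-type livers and at 54.5, 57.2, 60.3, 40.3 and 76.3 CPM in Ndrg3 LKO livers. All Ndrg3 LKO livers lay below all wild-type livers. The mean fell from 99.1 ± 10.5 to 57.7 ± 12.9 CPM (SD, n = 5 each), a log2 fold change of -0.78 (standard error 0.16, 95% interval -1.13 to -0.43, edgeR adjusted p = 0.00211), but with library size alone it was -0.28 and not called (edgeR adjusted p = 0.136). *Gclm* overlaps Gm17494 on the opposite strand.

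*Gclc*, on chromosome 9 from 77602342 to 77642292, was at 150, 98.0, 107, 141 and 91.6 CPM in wild-type livers and at 55.5, 78.1, 56.5, 60.0 and 121 CPM in Ndrg3 LKO livers. Replicates 1 to 4 lay below every wild-type liver, and replicate 5 was at 1.03 times the wild-type mean. The mean went from 118 ± 26.4 to 74.2 ± 27.7 CPM (SD, n = 5 each), a log2 fold change of -0.67 (standard error 0.23, 95% interval -1.18 to -0.15, edgeR adjusted p = 0.0335). Without replicate 5 it was -0.92 (edgeR adjusted p = 0.00104). The call was lost with library size alone (-0.20, edgeR adjusted p = 0.419) and when wild-type replicate 1 or 4 or Ndrg3 LKO replicate 1, 3 or 4 was left out, where the log2 fold change was -0.60 to -0.57.

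Within a liver, the counts of *Gclc* per *Gclm* count were 1.40, 1.05, 1.27, 1.28 and 0.924 in wild-type and 1.02, 1.37, 0.937, 1.49 and 1.59 in Ndrg3 LKO livers. The ranges overlapped, and the mean log2 ratio was 0.23 ± 0.24 in wild-type and 0.32 ± 0.34 in Ndrg3 LKO livers (SD, n = 5 each). The difference of 0.098 did not pass the exact permutation test (p = 0.595, adjusted p = 0.595), which does not show that the balance of the subunits was equal. The *Nqo1* to *Gclm* ratio, by contrast, was 0.0525, 0.0368, 0.0589, 0.0435 and 0.0273 in wild-type livers and 0.276, 0.280, 0.386, 0.161 and 0.138 in Ndrg3 LKO livers. This ratio was higher in each Ndrg3 LKO liver than in any wild-type liver, by 2.45 on the log2 scale or 5.47-fold on average (exact permutation test, p = 0.00794, adjusted p = 0.0238). Since it is taken within a liver, it does not depend on the scale.

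*Gsr*, on chromosome 8 from 34762995 to 34808635, was at 52.7, 64.7, 64.7, 53.1 and 59.1 CPM in wild-type livers and at 49.6, 41.1, 36.7, 35.1 and 59.4 CPM in Ndrg3 LKO livers. Ndrg3 LKO replicates 1 to 4 lay below every wild-type liver and replicate 5 lay among them. Its log2 fold change came to -0.41 (standard error 0.16, 95% interval -0.75 to -0.070, edgeR adjusted p = 0.0458) and turned to 0.089 with library size alone (edgeR adjusted p = 0.571). Without replicate 5 it was -0.55 (edgeR adjusted p = 0.00451). The call was lost when any 1 of Ndrg3 LKO replicates 1 to 4 or wild-type replicates 2, 3 and 5 was left out. *Gss*, the enzyme of the second step of glutathione synthesis, moved the other way, from 85.5 ± 16.0 to 200.2 ± 20.4 CPM (SD, n = 5 each; log2 fold change 1.23, standard error 0.15, edgeR adjusted p = 8.82e-05), and its groups did not overlap.

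*Srxn1*, on chromosome 2 from 151931252 to 151937112, encodes sulfiredoxin, which repairs over-oxidized peroxiredoxins. It was at 24.7, 27.0, 25.9, 23.6 and 25.2 CPM in wild-type livers and at 78.4, 70.7, 71.3, 64.6 and 75.6 CPM in Ndrg3 LKO livers. The 2 groups were far apart, and replicate 5 lay among the other Ndrg3 LKO livers. The mean rose from 25.3 ± 1.26 to 72.1 ± 5.28 CPM (SD, n = 5 each), a log2 fold change of 1.51 (standard error 0.10, 95% interval 1.29 to 1.73, edgeR adjusted p = 2.36e-06). It had the narrowest interval of the 10 genes, and 4.73% of genes had a larger log2 fold change. *Srxn1* and *Nfe2l2* share chromosome 2 with *Ndrg3*, at 4.82 and 81.21 Mb from it.

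*Txnrd1*, on chromosome 10 from 82296696 to 82360469, encodes the cytosolic thioredoxin reductase. It was at 100, 121, 98.9, 116 and 116 CPM in wild-type livers and at 102, 112, 108, 80.9 and 96.5 CPM in Ndrg3 LKO livers. The groups overlapped, with 110 ± 10.1 and 99.8 ± 12.1 CPM (SD, n = 5 each). The change was -0.15 on the log2 scale (95% interval -0.41 to 0.12, edgeR adjusted p = 0.347), and 0.39 with library size alone (edgeR adjusted p = 0.0621). *Txnrd1* to *Gsr*, the cytosolic reductases of the thioredoxin and glutathione systems, had a log2 ratio of 0.91 ± 0.19 in wild-type and 1.19 ± 0.34 in Ndrg3 LKO livers (SD, n = 5 each), and the difference of 0.28 did not pass the exact permutation test (p = 0.143, adjusted p = 0.214). Without Ndrg3 LKO replicate 5 the difference was 0.40 (exact permutation test, p = 0.0238, unadjusted).

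*G6pdx*, on the X chromosome from 71654822 to 71674533, encodes glucose-6-phosphate dehydrogenase, the entry enzyme of the pentose phosphate pathway and a source of NADPH for both reductases. It was at 3.04, 2.25, 1.34, 2.99 and 2.27 CPM in wild-type livers and at 4.81, 3.74, 11.1, 3.20 and 2.69 CPM in Ndrg3 LKO livers. These values rest on 24 to 65 counts in wild-type and 57 to 429 counts in Ndrg3 LKO livers. Ndrg3 LKO replicate 3 stood far above all others, replicates 1, 2 and 4 lay above the wild-type range and replicate 5 within it. The change was 1.10 on the log2 scale (standard error 0.39, 95% interval 0.26 to 1.95, edgeR adjusted p = 0.0329), and 0.60 without replicate 3 (edgeR adjusted p = 0.0911). The call was also lost without wild-type replicate 2, 3 or 5 or Ndrg3 LKO replicate 1. *Ikbkg* overlaps *G6pdx* on the opposite strand and was at a mean of 60.7 CPM in wild-type and 38.4 in Ndrg3 LKO livers, so reads of *Ikbkg* assigned to *G6pdx* cannot be set aside without the strand setting. G6pd2, an autosomal copy of *G6pdx*, had 1 count over all livers. The *G6pdx* to *Gsr* log2 ratio was -4.67 ± 0.60 in wild-type and -3.29 ± 0.98 in Ndrg3 LKO livers (SD, n = 5 each), 1.38 higher with overlapping groups (exact permutation test, p = 0.0238, adjusted p = 0.0476).

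**Figure D2:**
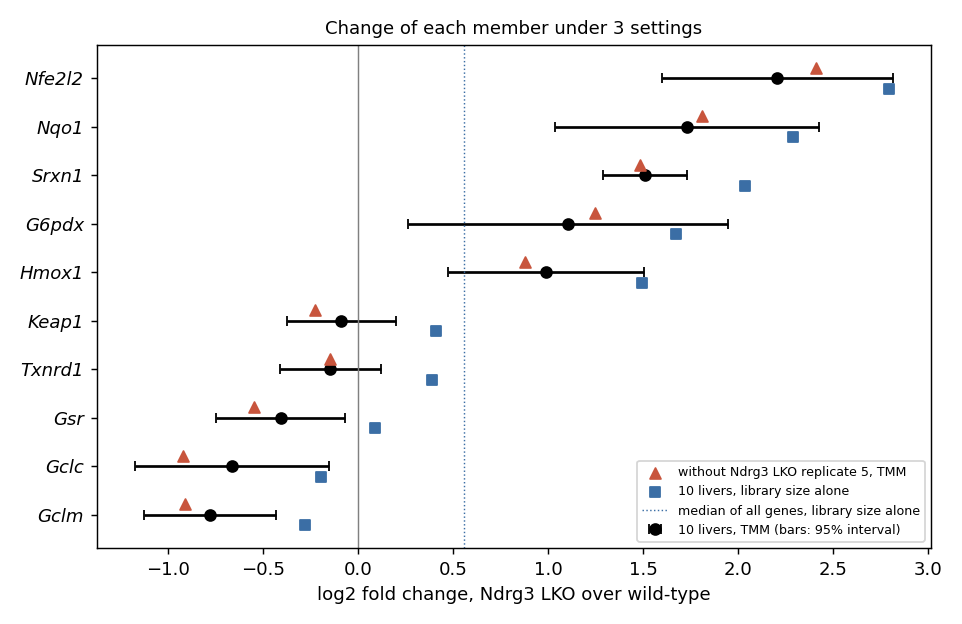
Log2 fold change of each gene, Ndrg3 LKO over wild-type (horizontal axis), with TMM in 10 livers (black points, bars of the 95% interval), with TMM without Ndrg3 LKO replicate 5 (red triangles) and with library size alone (blue squares). With library size alone *Keap1*, *Txnrd1* and *Gsr* turned to 0.41, 0.39 and 0.089, all under the dotted line, the median of all genes at 0.56 on that scale.

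**Figure D3:**
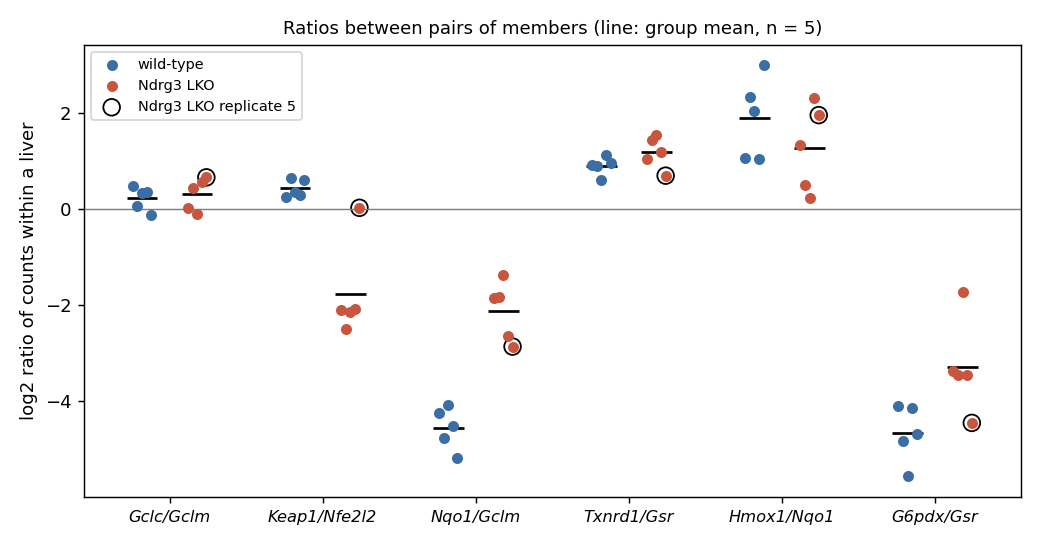
Log2 ratio of counts within a liver (vertical axis) for 6 pairs of the genes in 5 wild-type (blue) and 5 Ndrg3 LKO livers (red), with lines at the group means and replicate 5 circled. *Keap1*/*Nfe2l2* and *Nqo1*/*Gclm* did not overlap between the groups, and *Keap1*/*Nfe2l2* was 0.030 in the circled liver and -2.49 to -2.08 in the other Ndrg3 LKO livers.

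Levels of different genes were compared as CPM per kb of exon. In wild-type livers *Gclc* was highest, at 34.4 ± 7.72 CPM per kb (SD, n = 5), followed by *Txnrd1* at 27.5 ± 2.52 and *Gsr* at 21.4 ± 2.15. *Gclm* (19.3 ± 2.04), *Keap1* (12.6 ± 0.534), *Nfe2l2* (11.0 ± 0.963) and *Srxn1* (8.96 ± 0.446) followed, then *Hmox1* at 7.54 ± 2.44, *Nqo1* at 2.77 ± 0.776 and *G6pdx* at 0.771 ± 0.225. Among neighbours in this order, the ranges over livers overlapped for *Gclc* and *Txnrd1*, for *Gsr* and *Gclm*, and for *Srxn1* and *Hmox1*. They were apart for the other 6 neighbouring pairs. In Ndrg3 LKO livers *Nfe2l2* came first at 50.8 ± 18.8 CPM per kb and *Srxn1* second at 25.6 ± 1.87, although *Nfe2l2* in replicate 5 was at 18.3. *Gclc* stood at 21.7 ± 8.10 and *Gclm* at 11.2 ± 2.51, while *Nqo1* (9.19 ± 4.08) and *G6pdx* (1.66 ± 1.11) remained the lowest of the 10. Within Ndrg3 LKO livers all neighbouring ranges except that of *Nqo1* and *G6pdx* overlapped.

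**Figure D4:**
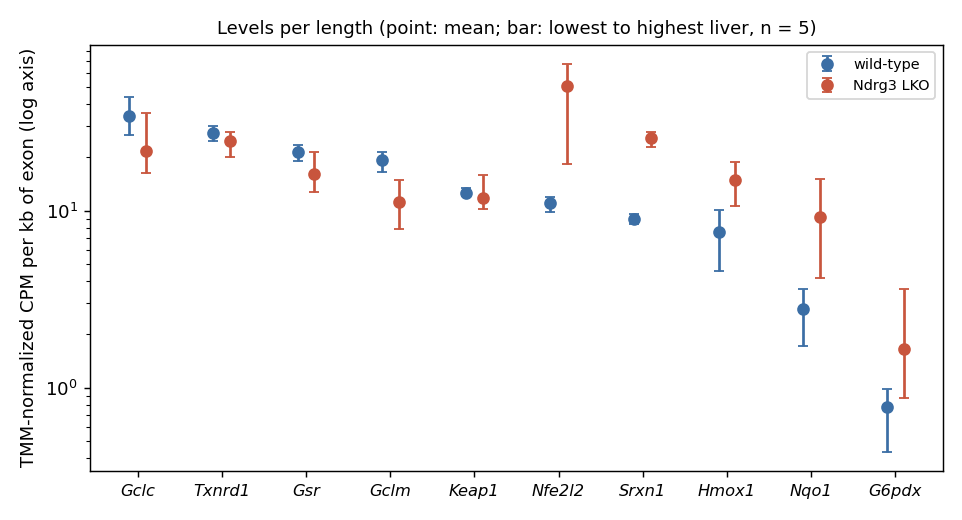
Mean TMM-normalized CPM per kb of exon (vertical log axis) of the 10 genes in wild-type (blue) and Ndrg3 LKO livers (red), with bars from the lowest to the highest of 5 livers. *Nfe2l2* ranged from 9.85 to 12.0 in wild-type livers, below 5 of the other genes by its mean, and from 18.3 to 67.3 in Ndrg3 LKO livers, first in the order.

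Genes that work beside these 10 were taken from 6 lists with 110 genes in all, of which 100 were tested. Of the 100, 18 rose, 32 fell and 50 were not called, with a median log2 fold change of -0.15. Over all genes tested, 25.6% rose and 23.0% fell. With library size alone, 45 of the 100 rose and 22 fell, where 52.1% of all genes rose and 8.97% fell. The share called with TMM, 50 of 100, stood close to the 48.6% of all genes. The groups did not overlap for 32 of the 100, 12 higher and 20 lower, against 31.5% of all genes, 15.6% higher and 15.9% lower. Without Ndrg3 LKO replicate 5, 19 rose and 39 fell, where 28.4% of all genes rose and 27.2% fell. The lists carry no test of their own.

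Among regulators of NRF2, 14 genes were tested, and the direction depended on the scale: with TMM none rose and 4 fell (*Mafg*, *Sqstm1*, *Cand1* and *Prkcd*), and with library size alone 4 rose (*Maff*, *Rbx1*, *Gsk3b* and *Dpp3*) and none fell. *Mafg* encodes a small MAF partner of NRF2 and was at 25.0 to 40.9 CPM in wild-type and 12.3 to 21.0 CPM in Ndrg3 LKO livers. With TMM its groups did not overlap and it changed by -0.93 on the log2 scale (standard error 0.18, edgeR adjusted p = 0.00162), and with library size alone by -0.44 (edgeR adjusted p = 0.0559). *Sqstm1*, whose protein p62 binds KEAP1, went from 422 ± 71.4 to 256 ± 95.5 CPM (SD, n = 5 each; edgeR adjusted p = 0.0226), with replicate 5 at 419. *Sqstm1* was not called with library size alone, nor without wild-type replicate 2 or Ndrg3 LKO replicate 3 or 4, and *Prkcd* was not called without wild-type replicate 1 or 4 or Ndrg3 LKO replicate 2 (highest edgeR adjusted p 0.0518 and 0.0535). *Cul3*, the scaffold of the KEAP1 ubiquitin ligase, was at 61.2 ± 1.53 and 48.7 ± 9.50 CPM (SD, n = 5 each; edgeR adjusted p = 0.0595). *Bach1*, a repressor that competes for the same elements, was at 33.1 ± 8.97 and 23.7 ± 7.64 CPM (SD, n = 5 each; edgeR adjusted p = 0.092).

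In glutathione synthesis, transport and use, 21 genes were tested, 6 rose and 9 fell with TMM, with a median log2 fold change of -0.56, and 8 rose and 7 fell with library size alone. The largest rise among genes at 5 CPM or more was that of *Gpx3*, the secreted glutathione peroxidase, from 3.62 ± 0.679 to 9.52 ± 2.96 CPM (SD, n = 5 each; log2 fold change 1.40, edgeR adjusted p = 4.57e-04). *Slc3a2*, the partner chain of the cystine transporter, also rose, from 44.7 ± 2.51 to 90.3 ± 14.6 CPM (SD, n = 5 each; edgeR adjusted p = 1.01e-04). *Slc7a11*, the other chain of that transporter, was too low to be tested, at 0 to 2 counts in wild-type and 1 to 36 counts in Ndrg3 LKO livers. The glutathione transferases did not move together. *Gstm6* fell from 143 ± 10.1 to 44.0 ± 8.99 CPM (SD, n = 5 each; log2 fold change -1.70, edgeR adjusted p = 1.31e-05), and *Gsta3*, *Gstp1* and *Mgst1* also fell. *Gstm3* rose (log2 fold change 1.23, edgeR adjusted p = 0.034) but was not called without any 1 of replicates 1 to 3 of either group (highest edgeR adjusted p 0.0923), and *Gstm1* was not called with TMM (0.33, edgeR adjusted p = 0.203) but was with library size alone (0.87). The members of the *Gstm* and *Gsta* families are similar in sequence, so their counts may share reads.

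Of 19 thioredoxin, peroxiredoxin and other antioxidant genes tested, 3 rose and 5 fell with TMM, and 7 rose and 4 fell with library size alone. Those that rose were *Txnrd2*, *Txn2* and *Prdx3*, which encode a thioredoxin reductase, a thioredoxin and a peroxiredoxin of mitochondria. *Txnrd2* went from 34.1 ± 4.08 to 64.1 ± 16.3 CPM (SD, n = 5 each; log2 fold change 0.91, edgeR adjusted p = 0.00114). *Prdx3* (0.39, edgeR adjusted p = 0.0288) was not called without wild-type replicate 1, 2, 4 or 5 or Ndrg3 LKO replicate 1. *Prdx5*, a peroxiredoxin also found in mitochondria, was not called, at -0.20 (edgeR adjusted p = 0.383). Nor was *Sod2*, the superoxide dismutase of mitochondria, at -0.28. The cytosolic *Txn1* and *Prdx1* were not called with TMM, at -0.024 and 0.16, and were called higher with library size alone (0.48 and 0.65). *Txnip*, which encodes an inhibitor of thioredoxin, fell from 230 ± 94.4 to 63.3 ± 20.1 CPM (SD, n = 5 each; log2 fold change -1.86, edgeR adjusted p = 0.00128), with wild-type replicate 4 at 75.4 inside the Ndrg3 LKO range. *Cat*, the catalase gene, fell (-1.61, edgeR adjusted p = 1.89e-04), and so did *Osgin1*, itself a known NRF2 target (-1.79, edgeR adjusted p = 1.89e-04).

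Of 12 NADPH genes tested, 3 rose (*Rpia*, *Pgd* and *Me1*) and 3 fell (*Idh1*, *Aldh1l1* and *H6pd*) with TMM, against 8 and 2 with library size alone. *Rpia* and *Pgd* belong with *G6pdx* to the pentose phosphate pathway, of which the list also held *Pgls* (0.21, edgeR adjusted p = 0.43), *Taldo1* (0.18, edgeR adjusted p = 0.362) and *Tkt* (0.13, edgeR adjusted p = 0.577), none of them called. *Rpia* rose from 4.05 ± 0.903 to 12.3 ± 3.54 CPM (SD, n = 5 each; log2 fold change 1.61, edgeR adjusted p = 2.14e-04) and *Pgd* from 30.3 ± 3.59 to 48.8 ± 14.5 CPM (edgeR adjusted p = 0.0134). *Me1*, malic enzyme, rose from 150 ± 37.3 to 292 ± 46.6 CPM (SD, n = 5 each; edgeR adjusted p = 0.00185). *Aldh1l1*, which makes NADPH from 10-formyltetrahydrofolate, fell from 1875 ± 157 to 544 ± 413 CPM (SD, n = 5 each; log2 fold change -1.79, edgeR adjusted p = 0.00277), with replicate 5 at 1267, and its log2 fold change was -2.38 without that liver.

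Of 20 quinone, aldehyde and xenobiotic genes tested, 4 rose (*Cbr1*, *Ephx1*, *Ptgr1* and *Akr1b8*) and 7 fell with TMM, and 10 rose and 7 fell with library size alone. *Cbr1*, a carbonyl reductase, went from 123 ± 23.5 to 461 ± 163 CPM (SD, n = 5 each; log2 fold change 1.91, edgeR adjusted p = 1.37e-04). *Ces1g*, a carboxylesterase, fell from 298 ± 57.8 to 15.2 ± 18.3 CPM (SD, n = 5 each; log2 fold change -4.31, edgeR adjusted p = 0.00101), and *Aox3*, *Aox1*, *Ugt1a6a*, *Cyp2a5*, *Aldh7a1* and *Aldh1a7* also fell. Without Ndrg3 LKO replicate 5, where *Ces1g* was at 44.8 CPM, its log2 fold change was -5.28. That of *Cyp2a5* went from -2.95 to -5.55 without replicate 5, and its call was lost when any 1 of the other livers except Ndrg3 LKO replicate 2 was left out (highest edgeR adjusted p 0.0832). *Ptgr1* was not called without replicate 5 (0.78, edgeR adjusted p = 0.0527), nor without wild-type replicate 1 or 4 or Ndrg3 LKO replicate 1. Several of these are genes of the mature hepatocyte, and 7 of 9 hepatocyte markers were lower in Ndrg3 LKO livers while none was higher. The summed hepatocyte markers were 159317 to 195676 CPM in wild-type livers, 41265 to 51891 CPM in Ndrg3 LKO replicates 1 to 4 and 175359 CPM in replicate 5. Albumin was the largest part of this sum in every liver, at 108020 CPM in replicate 5. There, Apoa1, Fgb, Hnf4a and Trf lay below every wild-type liver, with Hnf4a at 362 CPM against 590 to 794. Apoa2 and Ttr, like albumin, lay within the wild-type range in replicate 5, and Serpina1a and Ahsg lay above it. In replicate 5, *Gclm* was at 0.77, *Gclc* at 1.03 and *Gsr* at 1.01 times the wild-type mean. The part of hepatocyte content in the lower values was not tested.

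Of 14 heme and iron genes tested, 2 rose and 4 fell with TMM, and 8 rose and 2 fell with library size alone. *Slc48a1*, a heme transporter, rose from 41.7 ± 6.71 to 76.4 ± 16.9 CPM (SD, n = 5 each; edgeR adjusted p = 0.0017), and *Cd163*, the macrophage receptor for haptoglobin and hemoglobin, rose from 7.97 ± 3.04 to 18.9 ± 9.04 CPM (log2 fold change 1.24, edgeR adjusted p = 0.00877). *Cd163* is also a macrophage marker, whose sums are given beside *Hmox1*. *Alas1*, the first enzyme of heme synthesis, fell from 627 ± 203 to 198 ± 69.4 CPM (SD, n = 5 each; edgeR adjusted p = 7.82e-04), and *Hrg*, a heme-binding plasma protein, had the largest fall, from 1053 ± 175 to 252 ± 101 CPM (log2 fold change -2.06, edgeR adjusted p = 1.11e-04). The ferritin genes *Fth1* and *Ftl1*, both known NRF2 targets, were not called with TMM (log2 fold changes of 0.12 and -0.026), but *Fth1* was called higher with library size alone (0.61). Of the other cell types checked, 6 of 7 endothelial and 4 of 8 stellate cell markers were higher. Of 7 lipid-associated macrophage markers only 2 could be tested, and both were higher. Of 5 cholangiocyte markers tested, 1 was higher (Spp1, which macrophages also express) and 1 lower. The erythroid markers Hba-a1, Hba-a2, Hbb-b1 and Hbb-b2 were listed at 0 in all livers and Alas2 was lower, and no neutrophil or lymphocyte marker passed the filter.

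**Figure D5:**
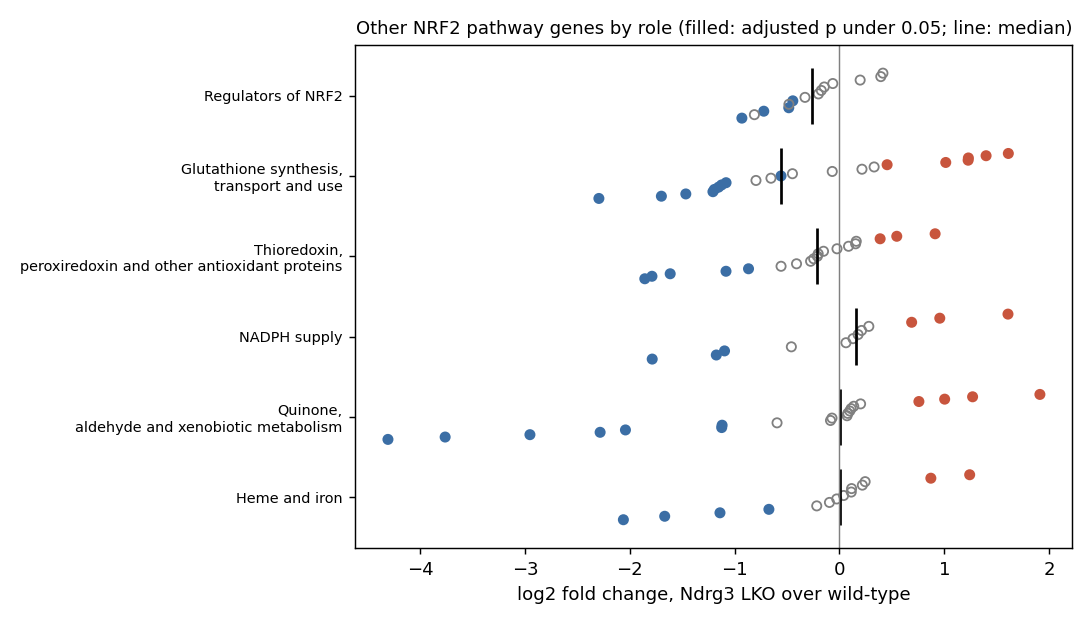
Log2 fold change, Ndrg3 LKO over wild-type with TMM (horizontal axis), of the 100 genes tested in 6 lists by role, 1 point per gene, filled where the edgeR adjusted p was under 0.05 and with a line at the list median. The list of NRF2 regulators has 4 filled points, all below 0, where library size alone gave 4 genes higher and none lower, and the glutathione list has 6 above and 9 below.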

How the data were processed

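Stranded mRNA libraries of 10 livers were sequenced by the authors as paired-end reads, mapped to mm9 with STAR and counted on genes. The deposited values are raw counts from that step, although the files are named as CPM. The submitters' processing notes also name Trim Galore 0.6.4, STAR 2.7.3a, Cufflinks 2.2.1 and bcl2fastq. The paper's methods name an earlier version of STAR, and which version gave the deposited counts is not known. The annotation and the strand setting of the counting are not given in the sources used here. Of 24052 symbols, 25 were written as dates and 6306 had 0 counts in all livers.

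The 11208 genes that reached 1 CPM in at least 5 of the livers were tested with edgeR 4.0.16 in R 4.3.3, using TMM and the quasi-likelihood test of Ndrg3 LKO against wild-type livers with Benjamini-Hochberg adjustment at 0.05. This leaves out genes low in both groups, and a gene high in 1 group only could pass. Per-liver values are TMM-normalized CPM. Log2 ratios of counts within a liver, with 0.5 added to each count, were compared by a 2-sided exact permutation test over 252 splits. Levels per kb used the union of exons of the GENCODE annotation of NCBIM37, and the promoters came from RefSeq (GRCm38.p6). The tests across genes were tested on simulated data first. Alternatives were median-of-ratios and library-size scaling, no filter, a mean CPM of at least 5, DESeq2 1.42.0, limma 3.58.1 on log2(CPM + 1), the replicate number as a block, and each liver left out. Subtracting the median of all genes was chosen after seeing the data.

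The members and lists were chosen with earlier results of these data known. Besides the 10 members, the genes to be named were, per list, the largest riser and faller called with a mean of at least 5 CPM in the higher group, *Gss*, the 3 genes most like *Nqo1*, and *Ndrg3*. Others named from the lists were chosen after their values were seen. The rows of Selenow and Adgre1 were found under the older symbols Sepw1 and Emr1, and the hepatocyte marker Tf had no row of its own. No 2 livers of a group looked like 1 library deposited again: chi-square divided by its degrees of freedom was 25.7 to 450 over the 20 pairs. P-values set the difference between the groups against the spread between these livers.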

Additional observations from a re-analysis of the deposited data

Results flagged for a closer look

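In groups of 5 livers, the highest or lowest value was called distant when its gap to the nearest other exceeded 0.71 of the range (Dixon's 95% critical value). Of 32 groups examined, 4 had such a value, where chance gives about 1 in 20 for a single group. The groups share livers and genes and are not independent. The flagged ratio is made of *Keap1* and *Nfe2l2*, which were themselves flagged in the same liver, so the count of flags is not a test. *Nfe2l2* in Ndrg3 LKO replicate 5 was at 69.4 CPM, with the other 4 Ndrg3 LKO livers at 207 to 256. *Keap1* in the same liver was at 70.9 CPM, with the others at 45.6 to 51.4. Their log2 ratio there was 0.030, with the others at -2.49 to -2.08. *G6pdx* in Ndrg3 LKO replicate 3 was at 11.1 CPM, with the others at 2.69 to 4.81.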

How the results depend on the processing

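Over 17 alternatives, *Nfe2l2*, *Nqo1*, *Hmox1* and *Srxn1* kept their direction and their calls, with adjusted p-values of at most 9.23e-04, 0.00423, 0.0163 and 2.20e-04. The call was lost for *Gclm* under 1 of 17, for *Gclc* under 7 of 17, for *Gsr* under 10 of 17 and for *G6pdx* under 7 of the 16 that tested it, among them limma for *G6pdx* (0.74, adjusted p = 0.0511) and a mean CPM of at least 5 for *Gsr* (-0.35, adjusted p = 0.0747). Library size alone reversed *Keap1* (0.41), *Txnrd1* (0.39) and *Gsr* (0.089) and gave 5834 genes higher and 1005 lower, with 6 of the 10 members higher and none lower. With the median of all genes subtracted (an alternative added after seeing the data), *Keap1*, *Txnrd1* and *Gsr* were at -0.15, -0.17 and -0.47 on that scale, and *Nfe2l2* was at 2.24. *Gclc* and *Gclm* were at -0.76 and -0.84 there. Leaving out 1 liver at a time gave 5 to 8 members called, with 5 when Ndrg3 LKO replicate 1 or 3 was left out. The members lower numbered 1 without Ndrg3 LKO replicate 1, 3 or 4. The *Txnrd1* to *Gsr* log2 ratio ranged from 0.19 to 0.40, and passed the test only without Ndrg3 LKO replicate 5.

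Both groups carry replicate numbers 1 to 5. After the group means had been removed, livers with the same number correlated over genes at -0.36, -0.27, -0.31, -0.18 and 0.036. No wild-type liver correlated best with its own number. With 5 livers per group this cannot decide whether livers of the same number were littermates or were handled together, which the sample names do not give. With the replicate block 5 members were called, and *Gclc* (-0.71, adjusted p = 0.0649), *G6pdx* (0.90, adjusted p = 0.115) and *Gsr* (-0.43, adjusted p = 0.0743) were not. The differences in the log2 ratios of *Keap1* to *Nfe2l2*, *Nqo1* to *Gclm* and *G6pdx* to *Gsr* over the pairs were -2.19, 2.45 and 1.38, each with an exact p of 0.0625, the smallest that 5 pairs allow, so no pair test could pass 0.05. Depth limits *G6pdx* most, with as few as 24 counts in a liver.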
